A study of Mus musculus with 5 samples.

Results

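In Ago HITS-CLIP tables of developing mouse liver, 1522 miRNA-site pairs combined the shortest listed seed match, a 6mer, with a predicted duplex energy of -25 or lower. They were taken from the entries of seed type 6mer that lay under a 3′UTR or a coding sequence (CDS), and each pair of a mature miRNA and a site position was counted once per library. All 5 libraries together held 671153 distinct 6mer pairs of this kind, so pairs at or below -25, called strong 6mers here, made up 0.227% of them. All other 6mers, with energies above -25, served as the comparison.

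Livers of C57BL/6 mice (C57BL/6J in the methods) came from embryos of e12.5, e15.5 or e18.5, from pups at P7 and from adults (6 to 8 weeks). Their RNA was crosslinked to Ago proteins with 254 nm light, given 3 times at a dose of 0.2 J/cm2. Ago2 antibodies (Wako and Abnova) were used for the embryonic livers, whereas the P7 and adult samples list Ago2 together with Ago1 (MBL), so what comes from the antibody and what from the age after birth cannot be told apart. The labels give 1 sample, called a library here, for each stage, so no stage could be tested against another, and every p-value below takes libraries as units, 5 of them unless another number is given. Of 8 hepatocyte markers, 7 had a listed site at e12.5 and e15.5, where Cyp2e1 had none, and all 8 had one at the later stages. The summed highest reads of 6 erythroid markers were between 18684 (adult, where Klf1 and Slc4a1 were among the 3 without a site) and 1011420 (e12.5). At e15.5 none of 4 cholangiocyte markers had a site. In whole liver, fewer cells of a type and less RNA per cell cannot be told apart.

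miRNAs guide Ago proteins to mRNAs mainly through the seed, the bases near the 5′ end of the miRNA, and the match of a 6mer ends before the base that a longer seed match would add. Such short matches are known as the weakest class of canonical sites, and pairing of the 3′ part of the miRNA can add to the duplex. A predicted energy therefore rewards long and GC-rich pairing, whichever miRNA is concerned and however many copies of it the cell holds.

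At every stage 5 strong 6mers were listed, and they are shown first because they recurred in each library. The capitals mark the hexamer that matches bases 2 to 7 of the miRNA, and the last lower-case base lies opposite miRNA base 1. Ambp encodes the precursor of alpha-1-microglobulin and bikunin, secreted by hepatocytes, Trf encodes transferrin, Rbp4 the plasma carrier of retinol, Nudt4 a phosphohydrolase of diphosphoinositol phosphates and Itgb1 the integrin beta 1 chain.
Ambp with miR-503-5p: tcaggaccctgttcctGCTGCTg
Trf with miR-15a-3p: atggcggtggggatgTGGCCTt
Rbp4 with miR-8114: ggggtgagatggagTGGGTGt
Nudt4 with miR-214-3p: atgccttgtttgtgaCTGCTGc
Itgb1 with miR-503-5p: tactgtaagctgtcctGCTGCTt
In mm10 the Ambp fragment lies at chr4:63154023-63154045 on the minus strand, in the CDS in exon 1 of 10. The Trf fragment lies at chr9:103223607-103223628 on the minus strand, in the CDS in exon 6 of 18, and is also listed under the overlapping gene Gm20425. The Rbp4 fragment lies at chr19:38124617-38124637 on the minus strand, in the CDS in exon 2 of 6. The Nudt4 fragment lies at chr10:95549322-95549343 on the minus strand, in the CDS in exon 5 of 5. The Itgb1 fragment lies at chr8:128732991-128733013 on the plus strand, in the 3′UTR in exon 16 of 16.

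The miRNAs on the other side of these duplexes, and those that carried many strong 6mers, had the following RefSeq mature sequences (GRCm38.p6), with bases 2 to 8 in capitals. miR-16-5p is shown beside miR-503-5p because both carry the same bases 2 to 7.
miR-503-5p: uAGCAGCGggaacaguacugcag
miR-16-5p: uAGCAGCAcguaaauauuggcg
miR-214-3p: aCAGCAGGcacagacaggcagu
miR-15a-3p: cAGGCCAUacugugcugccuca
miR-8114: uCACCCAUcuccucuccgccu
miR-5126: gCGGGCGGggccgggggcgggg
miR-149-3p: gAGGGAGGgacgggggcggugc
miR-7687-5p: aGGCGGGGaaccugaggcgcaggcu
The genes of miR-503-5p (chrX:53054027-53054049, minus strand) and miR-214-3p (chr1:162223438-162223459, plus strand) lie on different chromosomes, and the hexamers the pair matches, GCTGCT and CTGCTG, overlap in 5 letters. miR-328-5p and miR-5107-5p, which also ranked high below, are named only.

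Strong 6mers were rare at every stage. The e12.5 library held 614 among 301146 6mer pairs, 0.204% (Wilson 95% interval 0.188 to 0.221), and the e15.5 library 138 among 107952, 0.128% (0.108 to 0.151). The e18.5 library held 192 among 99305, 0.193% (0.168 to 0.223), the P7 library 620 among 245573, 0.252% (0.233 to 0.273), and the adult library 311 among 150853, 0.206% (0.185 to 0.230). The share was lowest in the e15.5 library and highest in the P7 library. The intervals treat pairs as independent and cover counting error only, so they do not compare the stages, whose libraries also differ in the miRNAs listed. Energies reached down to -41.5, but 589 of the 1522 pairs lay between -26 and -25, and 116 were at -30 or lower. Just inside the threshold, from -25.5 to -25, there were 167, 36, 50, 148 and 78 pairs from e12.5 to adult, with median reads of 34, 38.5, 40, 16 and 26 and mean conservation scores of 0.531, 0.499, 0.483, 0.538 and 0.639. Just outside, above -25 up to -24.5, there were 177, 54, 60, 162 and 70 pairs, with median reads of 36, 31.5, 43, 18 and 33 and mean scores of 0.566, 0.607, 0.562, 0.598 and 0.646. The score was lower just inside in each library, by the most at e15.5, and reads were higher just inside at e15.5 alone.

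**Figure D1:**
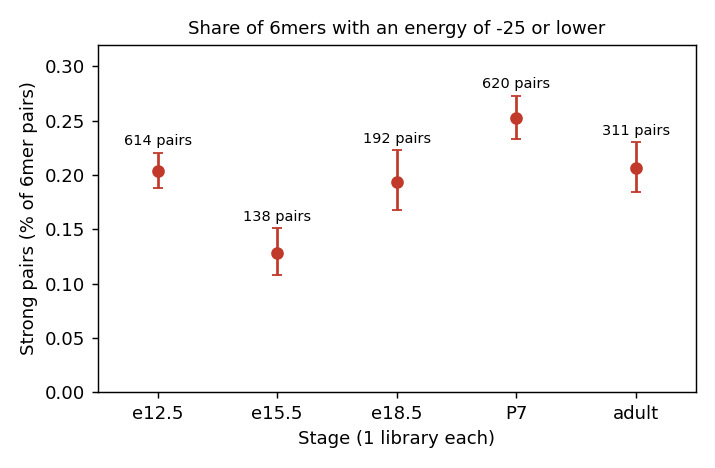
Strong 6mers as a percentage of all 6mer pairs (y axis) in the 5 libraries (x axis). Points are shares, bars are Wilson 95% intervals for counting error, and the number of strong pairs is written above each point. The e15.5 library sits lowest at 0.128% and the P7 library highest at 0.252%.

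Among the seed types, the 6mers lay below the sites that match base 8 in this share in each library, and on either side of the 7mer-A1 sites. Strong duplexes made up 0.198%, 0.163%, 0.188%, 0.187% and 0.163% of 7mer-A1 pairs from e12.5 to adult, more than of 6mers at e15.5 alone. They made up 0.580% (e15.5) to 0.996% (P7) of 7mer-m8 pairs and 0.498% (e15.5) to 0.810% (P7) of 8mer pairs. A 6mer pair was given the lowest energy of its entries, and a pair of a longer seed type the energy listed first. The order of 6mers and 7mer-A1 sites is therefore uncertain.

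The strong 6mers belonged to few miRNAs, and these were mostly GC-rich. Of 995 miRNAs with a 6mer, 284 had a strong one, and 36 of them held 50% of the strong pairs. The 15 miRNAs with the most held 461 pairs, 30.3% of all. Of the 6mers of miRNAs with 70% GC or more, 2.35% were strong, against 0.623% from 60% to below 70%, 0.189% from 50% to below 60% and 0.0251% from 40% to below 50%. A single strong pair belonged to the 167 miRNAs with less than 40% GC. The mean GC content of the miRNAs was between 62.3% (e18.5) and 66.8% (P7) for strong 6mers and between 49.0% and 50.4% for the others. The target fragments had a mean GC content between 65.9% and 68.2% against 49.8% to 54.0%, a property on which the energy itself depends.

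miR-328-5p led with 74 strong pairs among its 412 6mer pairs (18.0%). It was followed by miR-214-3p with 39 of 5533 (0.705%), miR-5126 with 37 of 120 (30.8%), miR-149-3p with 33 of 602 (5.48%), and miR-7687-5p with 31 of 275 (11.3%). miR-503-5p held 31 of 5865 (0.529%) and miR-5107-5p 29 of 885 (3.28%). The remaining 8 of the 15, miR-6990-5p, miR-665-5p, miR-6965-5p, miR-328-3p, miR-298-5p, miR-7033-5p, miR-7036b-3p and miR-877-3p, had between 21 and 28 each. miR-214-3p and miR-503-5p stood apart from the others by their many 6mers, of which fewer than 1% were strong, whereas miR-5126, printed above and made of G and C alone, had the highest strong share of the 15.

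Several of the leading miRNAs were scarce in the libraries. The interaction names carry a whole number per miRNA, taken here as its read count, and miRNAs were ranked by it. miR-328-5p had 510, 170, 3 and 2 reads from e12.5 to P7 and no 6mer in adult liver, and it held 34, 8, 10 and 35 strong pairs at the 4 younger stages. miR-149-3p had 1 read at P7 and no 6mer elsewhere, and its 33 strong pairs were all in that library. miR-5126 had 9 reads at P7 and 2 in adult liver, with 23 and 21 strong pairs. At P7 miR-328-5p thus had fewer reads than at e12.5 and a like number of strong pairs. In the same library, 48 strong pairs belonged to a miRNA with 1 read. miR-214-3p had 2065, 697, 1068, 437 and 857 reads from e12.5 to adult and 19, 12, 11, 17 and 12 strong pairs. miR-503-5p had 13408, 3432, 3471, 1602 and 366 reads in the same order, with 16, 5, 12, 13 and 13 strong pairs. Of the 15 miRNAs, miR-214-3p, miR-503-5p, miR-328-3p, miR-298-5p and miR-877-3p had strong 6mers at every stage.

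The 100 miRNAs with the most reads were under-represented among strong 6mers in each library. From e12.5 to adult they held 4.56%, 2.90%, 5.73%, 3.71% and 5.47% of strong pairs, and 14.9%, 20.5%, 19.4%, 15.6% and 20.3% of other pairs. The highest share among strong pairs was below the lowest among others. The mean difference over the libraries was -13.7 percentage points (SD 2.79, n = 5), negative in 5 of 5 libraries, with p = 0.062 in an exact two-sided sign-flip permutation test, the smallest value that 5 libraries allow, and 0.156 after Benjamini-Hochberg adjustment over 5 tests. With this number of libraries, no test could pass 0.05. The median read count of the miRNA behind a strong pair was 238, 176, 234, 20 and 30 from e12.5 to adult, against 429, 523, 414, 166 and 185 for other pairs.

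The abundant miRNAs of the liver had almost no strong 6mers. A set of 12, made up of miR-142a-3p, miR-451a, miR-144-3p, miR-122-5p, miR-92a-3p, miR-16-5p, let-7c-5p, miR-136-5p, miR-126a-3p, miR-194-5p, miR-26a-5p and miR-30a-5p, had 12837 6mer pairs, and 1 of these was strong (0.00779%, against 0.227% over all miRNAs). It was a CDS site of miR-92a-3p in Pars2, which encodes the mitochondrial prolyl-tRNA synthetase. This site (chr4:106653832-106653852, plus strand, exon 2 of 2) had an energy of -25.1, a conservation score of 0.571 and 37 reads at e12.5, and was in no other library. miR-122-5p, the hallmark miRNA of hepatocytes, had 1463 6mer pairs and no strong one. Its GC content was 45.5%, that of miR-144-3p 30% and that of miR-92a-3p 57.1%. All of the 12 except miR-92a-3p had less than 50% GC. Over all miRNAs the strong share was 0.0251% from 40% to below 50% GC and 0.00113% below 40%. These shares lie far closer to that of the 12 than 0.227% does, and the part of GC content was not tested.

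Where abundant miRNAs did have strong 6mers, miR-103-3p and miR-351-5p led. Counting pairs once, 60 of the 1522 belonged to a top 100 miRNA, from 21 miRNAs, with 14 pairs of miR-103-3p, 12 of miR-351-5p and 6 of miR-107-3p, miRNAs named after their counts were seen. miR-103-3p and miR-107-3p have the same bases 2 to 7 and together accounted for 30 strong pairs, including pairs of miR-107-3p from the 4 younger libraries, where it ranked below the top 100. Of the 1497 site positions, 22 carried strong pairs of 2 or more miRNAs.

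A strong 6mer could also lie at the hexamer of a longer site of another miRNA. This was so, with a 7mer or 8mer of a top 100 miRNA having the same bases 2 to 7, for 40 of the 1522 pairs (2.63%), and 29 of the 40 were pairs of miR-503-5p, which had 31 in all. At the Ambp site miR-16-5p had a 7mer-m8 match in 5 of 5 libraries, with a best rank of 2 among the miRNAs, and the same held at the Itgb1 site. Base 8 of the sequences printed above differs between miR-503-5p and miR-16-5p. The share of strong 6mers with such a longer site was between 2.26% (P7) and 5.21% (e18.5), against 1.60% to 2.28% of other 6mers. Any 7mer or 8mer of a top 100 miRNA was present in the same cluster for 33.3% to 42.4% of strong and 34.1% to 38.3% of other pairs, so reads of a cluster cannot be assigned to the strong 6mer in it.

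In the deposited structures the strong duplexes paired along most of the miRNA. For fragments at least as long as the miRNA, the median number of miRNA bases paired to the target was 17 in 4 libraries and 18 at e18.5, against 13 in each library for other 6mers. Bases 2 to 7 were all paired to the site in 97.4% to 99.0% of strong and 98.9% to 99.1% of other duplexes. Bases 13 to 16, where supplementary pairing is known to occur, were all paired in 48.4% (e15.5) to 54.5% (e18.5) of strong duplexes and in 14.1% to 14.9% of others. Bases 9 to 12 were all paired in 36.4% to 43.6% of strong and 12.2% to 12.6% of other duplexes. Since the energy is computed from this pairing, the values are a description and were not tested. The additional pairs were spread over all bases outside the seed match. Base 1 was paired in 35.7% (e18.5) to 44.0% (e12.5) of strong duplexes and 28.2% to 29.6% of others. Base 8 was paired to the target in 48.7% (e18.5) to 52.0% (P7) of strong duplexes and 28.4% to 29.7% of others, and base 10 in 72.6% to 78.2% against 46.2% to 46.7%. Toward the 3′ end, base 17 was paired in 75.2% to 84.3% against 49.2% to 50.1%, and base 20 in 67.3% to 76.0% against 38.5% to 39.5%.

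**Figure D2:**
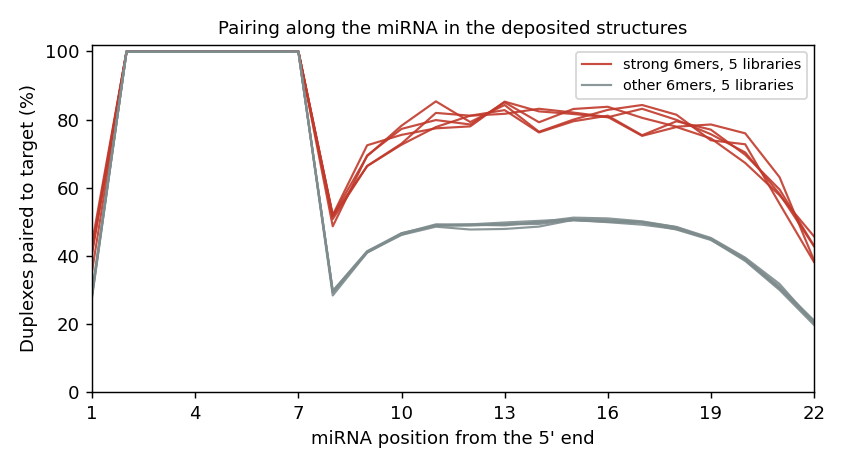
Percentage of duplexes in which each miRNA position (x axis, from the 5′ end) was paired to the target (y axis), for fragments as long as the miRNA. Each red line is 1 library of strong 6mers and each grey line 1 library of other 6mers. Both sets were paired at positions 2 to 7, both dipped at position 8, and the strong duplexes lay above the others at position 1 and from position 8 on.

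The length of the fragment that was folded bears on the energy. Fragments were cut off at the edge of a cluster, and 80.2% (e18.5) to 90.0% (adult) of strong pairs had a fragment as long as the miRNA, against 47.4% to 54.6% of other pairs. When all fragments were extended in the genome to the miRNA length and refolded, a setting chosen after seeing the data, the share of strong pairs changed from 0.207% to 0.308%. Here pairs are added up over the libraries, so that a pair in several libraries counts in each, whereas the 0.227% of the opening counts every pair once.

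The 4 pairs with the lowest energies are shown next because they mark the extreme of the set, with the hexamer in capitals.
BC037034 with miR-214-3p: gctgcctgtctgtgtCTGCTGg
Carm1 with miR-328-5p: tcctgagccctgaagGCCCCCc
R3hdm4 with miR-5126: ccctgccagctgcctCGCCCGg
Shf with miR-328-5p: ccctggccccactccGCCCCCg
The BC037034 fragment (chr5:138260110-138260131, minus strand, 3′UTR, exon 11 of 11) had an energy of -41.5 with 21 of its 22 bases paired, a conservation score of 1 and 43 reads at e12.5, and it is soft-masked as a repeat. Carm1, an arginine methyltransferase, had a 3′UTR site (chr9:21588933-21588954, plus strand, exon 16 of 16) at -37.7 with 132 reads at e12.5 and a conservation score of 0. The R3hdm4 fragment (chr10:79911008-79911029, minus strand, 3′UTR, exon 8 of 8) had -34.7 with 19 reads at P7 and -37.1 with 74 reads in adult liver, and a score of 0. Shf, an SH2 adaptor, had a CDS site (chr2:122368743-122368764, minus strand, exon 1 of 5) at -36.7 with 59 reads at e12.5 and a score of 0.910.

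Further extreme duplexes lay in Cfl1 (miR-328-5p, CDS, -35.9), Ifnar1 (miR-351-5p, CDS, -35.3), Cpt2 (miR-6538, CDS, -35.2), Amotl1 (miR-3076-5p, 3′UTR, -35.0) and Ssbp4 (miR-7017-3p, 3′UTR, -34.7). Cfl1 encodes the actin-severing protein cofilin, Ifnar1 a chain of the type I interferon receptor and Cpt2 a carnitine palmitoyltransferase. R3hdm4 was the only one of the 9 extreme pairs named here in 2 libraries, and the other 8 were each in 1 library. The read numbers of these 8 ran from 5 (Cfl1) to 132 (Carm1).

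Strong 6mers were less conserved than other 6mers in each of the 5 libraries. The mean conservation score, which runs from 0 to 1, was 0.540, 0.566, 0.521, 0.535 and 0.625 for strong 6mers from e12.5 to adult, and 0.657, 0.686, 0.659, 0.639 and 0.667 for other 6mers. The mean difference was -0.105 (SD 0.0369, n = 5), negative in 5 of 5 libraries, with p = 0.062 in the exact two-sided sign-flip permutation test and 0.156 after adjustment over 5 tests. In adult liver the gap was the narrowest, -0.0422, and it was -0.00255 there for miRNAs with 100 or more reads. A score of at least 0.9 was reached by 33.1% (P7) to 41.8% (adult) of strong 6mers and by 46.0% to 52.5% of the others. At the other end, 22.8% (adult) to 34.9% (e18.5) of strong and 20.1% to 23.6% of other 6mers scored below 0.1.

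The lower conservation was seen for pairs in coding sequence alone and for those in the 3′UTR alone. Small classes went the other way, namely pairs under both regions at e15.5 (0.915 for 4 strong against 0.818) and e18.5 (0.859 for 11 strong against 0.801), and pairs in repeats in adult liver (0.701 for 24 strong against 0.578). Among pairs listed in the CDS alone, the mean score of strong 6mers was 0.728, 0.708, 0.670, 0.697 and 0.738 from e12.5 to adult, and that of the others 0.815, 0.819, 0.787, 0.775 and 0.760. In the 3′UTR alone it was 0.267, 0.299, 0.255, 0.214 and 0.156 for strong and 0.386, 0.445, 0.401, 0.354 and 0.343 for other 6mers. In adult liver the CDS gap was the smallest, -0.0216, while the 3′UTR gap was the widest, -0.187, with 61 strong pairs behind it. Within bins of the same fragment GC count the mean difference over libraries was -0.0811, and for fragments as long as the miRNA it was -0.112. Scores also declined step by step with the energy at e12.5, from 0.674 above -10 to 0.649, 0.623 and 0.586 in the bins down to -25, and the strong 6mers came last at 0.540. Over both regions strong 6mers had the lowest mean of the 5 bins in each library. In the adult CDS alone, however, they scored 0.738, above the 0.703 of the bin from -25 to -20 and the 0.734 of that from -20 to -15.

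**Figure D3:**
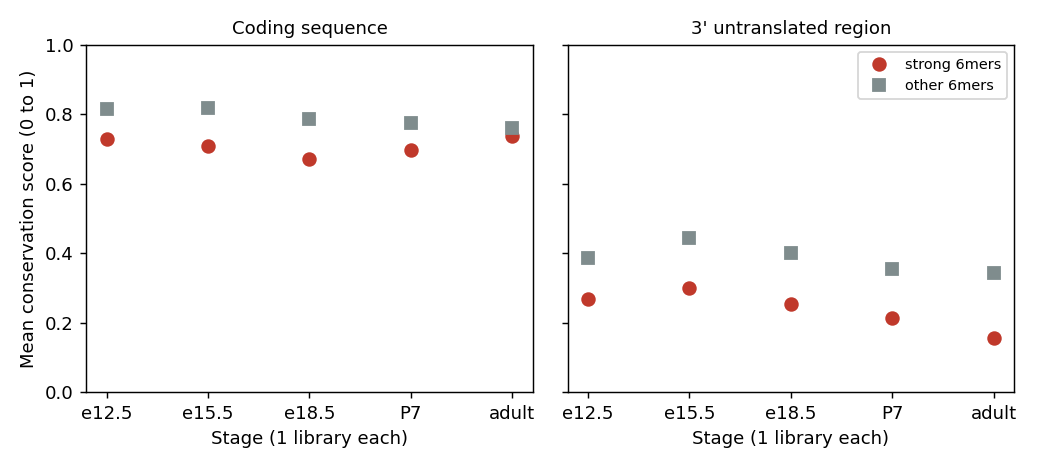
Mean conservation score (y axis, 0 to 1) of strong and other 6mers in the 5 libraries (x axis), for pairs listed in the CDS alone (left) and in the 3′UTR alone (right). Each point is the mean over the pairs of 1 library. In both panels the strong 6mers lie below the others at every stage, by the least in the adult CDS.

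Repeats held more of the strong 6mers. A soft-masked share of 0.5 or more of the fragment was found for 11.4%, 14.5%, 14.1%, 11.5% and 7.72% of strong pairs from e12.5 to adult, against 3.89% to 5.08% of other pairs. The difference in conservation outside repeats was between -0.122 (e15.5) and -0.0522 (adult). Over all stages 165 of the 1522 strong pairs lay in repeats, among them 16 of the 31 pairs of miR-503-5p and 13 of the 39 of miR-214-3p. The hexamers of both are made of CTG units, as printed above.

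The reads of the clusters did not separate the sets. The deposited read number is the highest count in the cluster, is not scaled to library size and is at least 5. Its median was 34, 35, 43.5, 18 and 29 for strong 6mers from e12.5 to adult, and 33, 37, 27, 18 and 28 for other 6mers. Quartiles overlapped widely, for example 15 to 79.8 against 18 to 73 at e12.5. The mean difference of the medians was 0.14 on the log2 scale (SD 0.31, n = 5), positive in 3 libraries, negative in 1 and 0 in 1, with p = 0.5 in the exact two-sided sign-flip permutation test (0.625 adjusted). The gap at e18.5, 0.69, was 0.09 in the first and 0.00 in the second of the 2 lists that make up that table, and without e18.5 the mean difference was 0.00338.

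Among fragments as long as the miRNA, the difference in median log2 reads changed sign. It was -0.19, -0.23, 0.04, -0.28 and -0.17 from e12.5 to adult, with a mean of -0.17 and p = 0.125 (exact two-sided sign-flip permutation test), lower for strong 6mers in 4 of 5 libraries. The highest read number of a strong 6mer was 2050, 872, 795, 2064 and 1618 from e12.5 to adult.

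Comparing within a miRNA removes the choice of miRNA from the contrast. At least 20 strong and 20 other pairs were reached by 2 miRNAs at e12.5, 4 at P7, 2 in adult liver and none in the other libraries, and the mean differences were 0.04, -0.24 and 0.16 log2 reads. The mean over these 3 libraries was -0.01 (SD 0.21), with p = 1 in the exact sign-flip permutation test, which cannot go below 0.25 with 3 libraries. With at least 5 pairs of each kind, 39, 5, 10, 37 and 14 miRNAs entered from e12.5 to adult, and the differences were 0.05, 0.33, 0.17, 0.07 and 0.15. Limited further to fragments as long as the miRNA they were -0.18, 0.16, -0.34, -0.13 and -0.13. With at least 5 pairs the sign thus differed between all fragments and full-length ones in 4 of 5 libraries and stayed positive at e15.5. With at least 20 pairs the mean over 3 libraries was -0.229 for full-length fragments, and for all fragments the sign at P7 differed between the minimum of 20 pairs and that of 5.

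**Figure D4:**
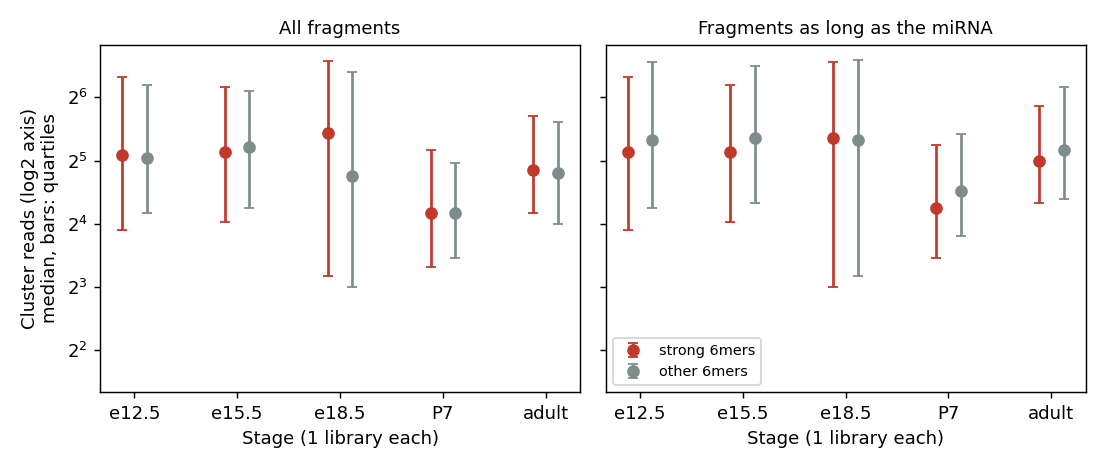
Cluster reads (y axis, log2 scale) of strong and other 6mers in the 5 libraries (x axis). Points are medians and bars run from the first to the third quartile, for all fragments (left) and for fragments as long as the miRNA (right). The bars of both sets overlap in every library, and the wider gap at e18.5 on the left is not seen on the right.

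Most strong 6mers lay in the CDS, as other 6mers did. Counted once, 920 pairs were in the CDS alone, 528 in the 3′UTR alone and 74 under both. The CDS share of strong pairs was 58.6%, 63.8%, 61.5%, 66.5% and 80.4% from e12.5 to adult, and that of other pairs 63.4%, 64.5%, 66.8%, 67.5% and 77.4%. The mean difference was -1.77 percentage points (SD 3.36, n = 5), negative in 4 of 5 libraries, with p = 0.312 in the exact two-sided sign-flip permutation test (0.521 adjusted). Within bins of the same fragment GC count, the difference in CDS share was negative in all 5 libraries, between -15.5 (e18.5) and -3.83 (adult) percentage points, with a mean of -10.1. The sign of the mean turned with the threshold and the folding, to 0.212 at -22, 1.17 at -28 and 0.58 after extending and refolding the fragments. It was -10.2 for the top 100 miRNAs, negative in 5 of 5 libraries, and -5.44 with the first list of each embryonic table alone. Without the e18.5 library the mean was -0.893, without e12.5 -1.03 and without the adult library -2.95.

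Few strong 6mers recurred between stages. Of the 1522 pairs, 1268 (83.3%) were strong in 1 library, 184 in 2, 46 in 3, 19 in 4 and 5 in all 5 libraries. Listed at any energy, 77.9% of them were in 1 library, close to the 76.7% of other 6mer pairs, and 0.526% were in all 5 against 0.785%. Pairs strong before birth only numbered 661 (43.4%) and after birth only 705 (46.3%), and of other 6mer pairs 47.6% were listed before birth only and 38.4% after birth only. The e15.5 list shared 52 strong pairs with the e12.5 list, which was 37.7% of the former and 8.47% of the latter, and other 6mers shared 44.5% and 15.97%. The P7 and adult lists shared 70 strong pairs, 11.3% and 22.5%, and other 6mers shared 18.1% and 29.4%. The order was the other way for the e15.5 and e18.5 lists against P7, which shared 31.2% and 37.5% of their strong pairs with it and 27.0% and 36.3% of their other 6mers. A pair counted here as shared had to be strong in both libraries, and other 6mers had to be above -25 in both. The miRNA lists of the libraries differed too, as described for miR-149-3p, and a pair could recur only where its miRNA was listed.

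Another 19 pairs were strong in 4 libraries, and they were named after their values were seen. Of these, 2 examples were not listed in the adult library. Slc25a37 (mitoferrin, the mitochondrial iron importer) with miR-667-3p had 186, 126, 19 and 29 reads from e12.5 to P7 at a 3′UTR site of -25.5 with a score of 0. Cpox, an enzyme of heme synthesis, had 133, 146, 314 and 47 reads at a 3′UTR site of miR-8114 (-25.3, score 0.014, in a repeat). The summed erythroid marker reads given above were also lowest in the adult library, and their part in these values was not tested.

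The following were listed in the adult library, except for some pairs of miR-214-3p named last. Hnrnpl, an RNA-binding splicing factor, had 759, 475 and 425 reads in the embryonic libraries and 749 in the adult one at a site of miR-370-3p (-25.9, score 1), and was not listed at P7. Fkbp4, an Hsp90 co-chaperone, had 118, 406, 276 and 573 reads at e12.5, e18.5, P7 and adult at a site of miR-7068-5p (-26.9, score 0.95). Cxcl12 had 24, 124, 173 and 319 reads from e15.5 to adult at a CDS site of miR-339-3p (-25.7, score 0.819), lowest at e15.5 and highest in the adult library. Aldoa, the glycolytic aldolase, had 38, 6, 90 and 63 reads at e12.5, e18.5, P7 and adult at a site of miR-874-3p (-26.3, score 1), whose fragment also occurs in Aldoart2. The 4 pairs of miR-214-3p in Napsa, Tmc8, Wbp1l and Brpf3 had energies between -30.6 and -25.4.

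The 5 recurrent duplexes kept the same energy in every library. At the Ambp site the reads were 333, 253, 177, 873 and 1618 from e12.5 to adult, with an energy of -25.8 and a conservation score of 0.996. The adult library had the highest read number and e18.5 the lowest. The Itgb1 site ran the other way, with 2050, 872, 593, 242 and 90 reads, an energy of -26.2 and a score of 0.094, so the e12.5 value was the highest and the adult value the lowest. The Trf site had 51, 35, 414, 220 and 209 reads (-25.6, score 1), lowest at e15.5 and highest at e18.5.

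The Rbp4 site had 147, 49, 197, 323 and 373 reads (-25.1, score 0.999), again with the lowest value at e15.5 and the highest in adult liver. The Nudt4 site had 128, 60, 9, 22 and 14 reads (-27.0, score 0.988), with the highest value at e12.5. Ambp, Trf and Rbp4 encode plasma proteins. Over the same stages the summed highest reads of the 8 hepatocyte markers were 4280, 5582, 20573, 49755 and 77290. Trf is itself among these 8 markers, so the sum is not independent of it. The part of the markers in the site values was not tested. Each read number is a single unscaled value.

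**Figure D5:**
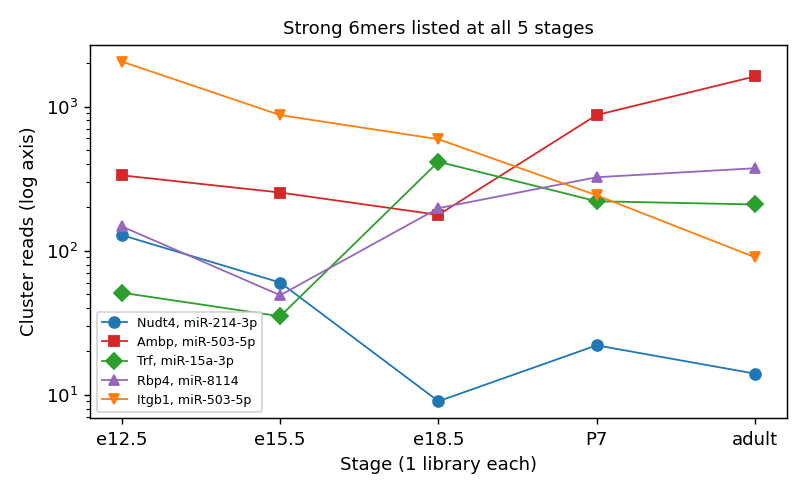
Cluster reads (y axis, log scale, not scaled to library size) at the 5 strong 6mers listed at all stages, by library (x axis). Each line is 1 site, named by its gene and miRNA. Ambp reaches 1618 reads in the adult library and Itgb1 falls to 90.

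Genes rarely held more than 1 strong site. In the CDS, 862 of 13252 genes with a 6mer had a strong site, and 754 of them had 1. In the 3′UTR, 530 of 10658 genes did, and 475 of them had 1. In each region 11 genes had 3 or more.

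The 10 genes with the most strong sites in each region are given by their counts, with no test of what they have in common. Larp1, which binds mRNAs of the translation machinery, had 5 strong sites of 184 in its 3′UTR, from 5 miRNAs and in 4 libraries. Mknk2, a kinase that phosphorylates eIF4E, had 5 of 125 sites in 3 libraries. Zfp36l1 and Zfp36l2, which promote the decay of AU-rich mRNAs, had 3 of 65 and 3 of 51 in the CDS, each over 3 libraries. None of the miRNAs at these sites was among the 12 abundant ones.

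Igf2, a fetal growth factor, had 5 of 216 3′UTR sites, with 2 each at e12.5 and e18.5, 4 at P7 and none in the other libraries, and up to 142 reads. Arhgef12, a guanine nucleotide exchange factor, had 5 of 163 in the 3′UTR, and Cxcl12, a chemokine, had 4 of 272 in the 3′UTR, all at P7 or in adult liver, apart from its CDS site given above. Cebpa, a transcription factor of hepatocytes, had 3 of 38 sites in the CDS (7.89%), the highest share of the 20 genes, at e18.5 and P7.

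Epb4.1, protein 4.1 of the red cell skeleton, had 3 of 196 sites in its 3′UTR and was the only one of the 20 genes with a strong site in all 5 libraries. Slc4a1, the red cell anion exchanger, had 3 of 272 in the CDS, with 2 at e12.5 and 1 at P7. Myh9, non-muscle myosin, had 3 of 358, Col18a1 3 of 280 and Tmcc2 3 of 158 in the CDS. The other members, Gcn1l1, Slc22a23 and Helz2 in the CDS and Arl6ip1, Lrrc58, Zbtb7a and Lrrc32 in the 3′UTR, had 3 strong sites each.

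The 9 gene lists were read beside all genes, of which 1259 of 13858 (9.09%) had a strong 6mer in at least 1 library. Genes with many 6mers have more chances to hold a strong one, so the share of pairs is given as well. Of 30 hepatocyte secreted proteins 11 had a strong 6mer, and 0.192% of their pairs were strong, near the 0.227% over all genes. Besides Ambp and Trf, Ahsg (fetuin-A) had strong pairs of miR-6943-5p and miR-770-5p in 3 libraries, with up to 48 reads at e12.5, 371 at e18.5 and 538 at P7.

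Lipid metabolism had strong 6mers in 7 of 21 genes (33.3%) and in 8 of 4420 pairs (0.181%), near the share over all genes. Scarb1, the HDL receptor, had a CDS site of miR-339-3p (-25, score 0.822) with 46 reads at e12.5, 95 at e18.5 and 79 in adult liver.

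Amino acid and urea metabolism had strong 6mers in 3 of 17 genes (0.148% of pairs), each in 1 library, among them Gls2 in adult liver and Hpd at P7. Cytochrome P450 genes had them in 2 of 11 (0.181% of pairs). Cyp2e1 had 21 reads at P7 and 178 in adult liver at a site of miR-5107-5p, and Cyp4a10 had 42 and 336 at a site of miR-503-5p.

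Collagens and matrix had the highest share of pairs of the 9 lists, 12 of 2996 (0.401%). They lay in 5 of 16 genes, among which Col18a1 held 4, Col1a1 3 and Fn1 2. Erythroid genes had them in 4 of 16 genes with a 6mer, all 4 at e12.5, with 7 of 3467 pairs (0.202%). Slc4a1 held 4 of these, with up to 332 reads at e12.5, and Klf1 had 1, at e12.5, with 10 reads. The list spelled Epb4.1 as Epb41, so this red cell gene was not counted in it. Epb4.1 had a strong site in all 5 libraries, so the erythroid counts leave out sites at the later stages. The cell cycle list had 1 of 3113 pairs (0.0321%), in Mki67 at e12.5.

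Hippo pathway genes had strong 6mers in 5 of 21 genes and 5 of 1487 pairs (0.336%), each of the 3 named in 1 library. Lats2, a core kinase of the pathway, had a 3′UTR site of miR-874-3p (-26.2, score 1) with 37 reads at e12.5. Lats1, its paralog, had one of miR-1960 (-26.9, score 0.236) with 8 reads at e18.5, and Amotl1 had one of miR-3076-5p (-35.0, score 0.001) with 14 reads at P7. The miRNA machinery had them in 3 of 13 genes (0.158% of pairs). Ago2, the precipitated protein, had a 3′UTR site of let-7d-5p (-27.3, score 0.049) with 42 reads at e12.5 and 28 at P7, Tnrc6c had strong pairs of 2 miRNAs at P7 and in adult liver, and Dicer1 had a site of miR-1930-5p at e12.5.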

How the data were processed

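Ago HITS-CLIP of mouse liver was deposited as a table of miRNA-target interactions for each stage. The authors preprocessed reads with the FASTX-Toolkit, mapped them with Bowtie to mm10 and miRBase v19 precursors, built clusters of overlapping reads, and searched these for seeds after annotation with UCSC refGene and Ensembl. The processing notes of the submitters name mm9 as well. Every 6mer fragment was equal to GRCm38 at its listed position, so positions were read as mm10. Although the methods mention 2 biological replicates for Ago2, each stage has 1 labelled sample. A second e18.5 library that the study lists has no labelled sample here and was not analysed as one, and whether its sites are in the e18.5 table is not given in the sources used here.

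The deposited read column is a signal, taken as the maximum read number of a cluster, with a minimum of 5. Its header speaks of the miRNA target in the e12.5 table and of the peak in the others. The deposited duplex energy and the deposited conservation score are scores whose methods are not given in the sources used here. RNAfold 2.7.2, with a 9-letter linker between miRNA and fragment, gave energies within 1 of the deposited ones for 99.9% of strong duplexes, of which 94.0% were at -25 or lower on refolding. The values are thus on the kcal/mol scale of that program. Numbers per miRNA were taken as read counts, highest over gene copies and added over the 2 lists in each embryonic table.

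Each miRNA, chromosome, strand and site start was counted once per library, with its lowest energy and highest reads. Differences between strong and other 6mers were computed per library and tested over the 5 libraries with exact two-sided sign-flip permutation tests and Benjamini-Hochberg adjustment over 5 tests. Pairs are not replicates, and the p-values set the mean of the 5 library differences against random changes of their signs. The libraries are different stages that share some sites, so their differences are not fully independent. The members, gene lists and rules were chosen with earlier results of these data known. miRNAs named are the 15 with the most strong pairs and 12 abundant ones, of which miR-126-3p and miR-142-3p are listed as miR-126a-3p and miR-142a-3p. Genes named are the 10 with the most distinct strong sites in each region, ties broken by pairs, libraries and reads. Sites named are those in all 5 libraries, the 5 with the lowest energy in each region, the sites of the 12 miRNAs, and up to 3 genes per list. A few of these genes and sites are not reported here. RefSeq held 846 of 995 miRNAs by name, of which 839 had the deposited sequence. Exons are those of GENCODE vM21. The contrasts of reads, reads within miRNA and conservation were checked on draws of the data with random labels and known shifts. The CDS share and the top 100 share were not checked in this way. Python 3.11.15, numpy 2.4.6, pandas 2.3.3, scipy 1.17.1 and matplotlib 3.10.9 were used. Alternatives covered energies, reads, lists, regions, miRNAs, GC content and leaving out each library. Fragment length, refolding, repeats, miRNAs of 100 or more reads, shared hexamers and region classes were chosen after seeing the data.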

Additional observations from a re-analysis of the deposited data

Results flagged for a closer look

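The CDS share of strong minus other 6mers was positive in adult liver, 2.94 percentage points, and negative in the 4 younger libraries, between -5.29 (e18.5) and -0.702 (e15.5). The difference between the stages was not tested, because each has 1 library. Within bins of the same fragment GC count, the adult value was -3.83.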

How the results depend on the processing

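The conservation difference stayed negative under all 22 alternatives on the same scale, between -0.147 and -0.0789, and the top 100 share difference under all 22, between -18.6 and -7.95 percentage points. No test could pass 0.05 with 5 libraries. Leaving out each library gave 0.00338 to 0.195 for reads (log2), -0.12 to -0.0961 for conservation, -2.95 to -0.893 points for the CDS share, -14.5 to -12.7 points for the top 100 share, and -0.101 to 0.104 for reads within miRNA, where leaving out P7 changed the sign. The reads difference (0.14) turned to -0.0052 with the top 100 miRNAs, -0.0672 within GC bins, -0.166 for fragments as long as the miRNA and -0.0377 after refolding extended fragments. The within-miRNA difference (-0.0125) turned to 0.184 at -22, 0.0451 with at least 10 reads, 0.108 in the CDS alone, 0.156 with at least 5 pairs, 0.0335 outside repeats and 0.0429 with miRNAs of 100 or more reads. It gave no value at -28, in the 3′UTR alone, for the top 100 miRNAs or within GC bins, where too few pairs were left. The CDS difference (-1.77) turned to 0.212 at -22, 1.17 at -28 and 0.58 after refolding. The cause of these turns was not tested.

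The strong share over all libraries (0.207%) moved to 0.871% at -22, 0.043% at -28, 0.194% over every entry, 0.226% with the first list, 0.219% in the 3′UTR alone, 0.0536% for the top 100 miRNAs, 0.268% with 1 pair per position, 0.347% for fragments as long as the miRNA, 0.308% after refolding, 0.193% outside repeats and 0.155% with miRNAs of 100 or more reads. Instead of 5 pairs, 31 were strong in all libraries at -22, 0 at -28, 0 with the first list, 9 after refolding and 3 without shared hexamers. No paired analysis was possible because the labels give 1 sample per stage and no replicate numbers, so no replicate block could be fitted beside the contrasts within each library. The e15.5 means rest on the fewest strong pairs, 138.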

Other observations

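Some strong 6mers lay in sequence that gene copies share. For 16 combinations of a miRNA and a fragment, the identical fragment occurred at more than 1 position, which concerned 37 of the 1522 strong pairs. The same miR-7687-5p fragment was listed in 5 histone H2B genes (Hist1h2bc, Hist1h2bj, Hist1h2bk, Hist1h2bq and Hist1h2br), a miR-666-5p fragment in 3 histone H3 genes, and a miR-365-2-5p fragment in the carboxylesterases Ces1c, Ces1e and Ces1g. Further pairs shared a fragment in Tuba1b and Tuba1c, Tubb2a and Tubb2b, Gstp1 and Gstp2, Hspa1a and Hspa1b, and Cyp4a10 and Cyp4a32, the last for miR-503-5p. Reads from such copies could not be told apart by these fragments, and the genes are uncertain to that extent.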
